A study of Mus musculus with 3 samples.

Results

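The 8 members described here are the S100 genes S100a4, S100a6, S100a8, S100a9, S100a10, S100a11, S100a13 and S100a16, which were taken by symbol from the 51912 genes of the count tables. They were chosen from their levels in these same cells, so the levels across cell groups are given as a description and only the comparison between reticular cell gates was tested. The tables list 17 S100 genes in all, of which 8 others were followed for comparison. The cells came from lymph nodes (LNs) of C57BL/6 mice carrying a CXCL13-TdTomato reporter, in which Cre and the fluorescent protein TdTomato are driven by the Cxcl13 gene. Live podoplanin-positive, CD31-negative, CD45-negative, TdTomato-positive cells were sorted and profiled with droplet-based 3′ single-cell RNA sequencing. Mice had received either 2 antigen immune complexes (ICs), the first 7 days and the second 24 hours before analysis (2-IC, 2 libraries), or 1 IC 24 hours before analysis (1-IC, 1 library), and the study pooled the LNs of several mice per condition. The short descriptions of the 2-IC libraries name 24 h for one and 7 d for the other although both titles give the same treatment, while the study describes independent experiments on pooled LNs without tying each one to a library.

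S100 proteins are small proteins, mostly dimers, and most of them, though not all, change shape when calcium binds and then dock onto other proteins. S100a10 forms a complex with annexin A2 (Anxa2) at membranes, S100a4 binds the heavy chain of non-muscle myosin IIA (Myh9), S100a6 binds calcyclin-binding protein (Cacybp), S100a11 binds annexin A1 (Anxa1), and S100a13 takes part in the release of the growth factor Fgf1. S100a8 and S100a9 form calprotectin, an abundant protein of neutrophils and monocytes that is sensed through Tlr4 and the receptor RAGE (Ager). Follicular dendritic cells (FDCs) are stromal cells that hold immune complexes on complement receptor 2 (Cr2) for display to germinal centre B cells.

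All 8 members lie on mouse chromosome 3 in GRCm38 (positions from GENCODE). A stretch of 6 genes (S100a13, S100a16, S100a4, S100a6, S100a8 and S100a9) spans chr3:90514435-90695721. S100a11 at chr3:93520488-93526287 and S100a10 at chr3:93555080-93564643 lie in a separate stretch. S100a4 (chr3:90603771-90606045) and S100a6 (chr3:90612882-90624181) are neighbours on the plus strand, and S100a8 (chr3:90668978-90670035, plus strand) and S100a9 (chr3:90692632-90695721, minus strand) are the calprotectin pair. Of the 13, 13 and 3 barcodes with either of the pair in 2-IC replicate 1, 2-IC replicate 2 and 1-IC, 2, 4 and 2 held both. S100a4 shares part of its locus and strand with Gm42674, which had 0 UMIs in each library, and the pseudogene S100a11-ps had 0 to 2 UMIs, so at most 2 UMIs per library went to either. Promoters were shown for the calprotectin pair and for the 2 members that differed most within FDCs, as the 30 bases from 45 to 16 bases before the RefSeq start site (GRCm38.p6, 5′ to 3′ on the gene's strand, with a TATAAA match in capitals).
S100a4, chr3:90603725-90603754: agggcctggcagggTATAAAtaggtcagat
S100a8, chr3:90669026-90669055: ggccaagctttcctcTATAAAagcagctga
S100a9, chr3:90695737-90695766: aagcaatcttccccgagataaccatgtatc
S100a11, chr3:93520451-93520480: cacagcctgagtcaggctgaggggcgggac
The letters TATAAA, searched on the gene's strand, stood in this window for S100a4 and S100a8, 2 of the 7 members with a promoter entry, and for 2.14% of the 32851 promoters of the same length. S100a9, S100a11 and the other members with an entry had no match in these letters and this window. The S100a8 window lies in the first exon of a longer transcript in GENCODE.

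The 3 libraries held 5486 barcodes with 3766526 to 20607903 unique molecular identifiers (UMIs), and 4513 barcodes had at least 200 genes and at most 10% mitochondrial UMIs. Cr2-positive barcodes without a Tyrobp UMI and without any of 13 contaminant genes (which include S100b) were called FDCs, and were split at a share of 1% of UMIs from Malat1, a long noncoding RNA kept in the nucleus. Values are given throughout in the order 2-IC replicate 1, 2-IC replicate 2, 1-IC. The split gave 29, 10 and 15 FDC barcodes with low Malat1 and 104, 25 and 32 with high Malat1. The values nearest the split were 0.993% and 1.02% in 2-IC replicate 1, 0.0983% and 1.49% in 2-IC replicate 2, and 0.0373% and 5.88% in 1-IC, so 2-IC replicate 1 alone held barcodes close to it on both sides. Both FDC groups had UMIs of all 8 FDC markers listed in every library, among them Cr2 at 1496 to 2116 CPM (UMIs of a gene scaled to a total of 1000000 UMIs) in the low and 979.9 to 1247 CPM in the high group. A Cr2 UMI is required for these groups, so its presence is fixed and its CPM depends on the depth of the barcodes. The Tyrobp-positive barcodes described next also had UMIs of all 8 markers in every library. Other stroma (1299, 325 and 235 barcodes) had neither Cr2 nor Tyrobp and at least 2 of 7 stromal genes, and it contains the 4 reticular gates described later. Tyrobp-positive barcodes (254, 59 and 59) carry a UMI of Tyrobp, an adaptor of myeloid and natural killer (NK) cells, in a sort that should have removed such cells. Both 2-IC libraries together share 76 barcode sequences, 75 of which differ over 10-fold in UMIs between the copies, and 2-IC replicate 1 shares 2 with the 1-IC library. No low Malat1 FDC barcode and 4 high Malat1 FDC barcodes are among them. Leaving the shared barcodes out kept the counts of members called at 2, 0 and 1 in the comparisons of cell groups below.

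S100a11 and S100a4 were the members that stood out in FDC barcodes with low Malat1. S100a11, a partner of annexin A1, had 1035, 1247 and 1561 CPM in the low Malat1 group (113, 76 and 72 UMIs) against 512, 230.4 and 331 CPM in the high Malat1 group. The lowest library of the low group was above the highest of the high group, and the mean was 1281 ± 265 CPM (SD, n = 3) against 358 ± 143 CPM. S100a4 had 266 CPM (29 UMIs), 541 CPM (33 UMIs) and 347 CPM (16 UMIs) with low Malat1 and 109.9, 22.5 and 75.1 CPM with high Malat1. These groups did not overlap either, but the counts were small, and 1 barcode gave 11 of the 33 UMIs in 2-IC replicate 2.

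The remaining 4 detected members were also higher with low Malat1 in each library, with smaller mean ratios. Without the contaminant filter this direction did not hold, as given below. S100a13 had 421, 312 and 499 CPM in the low group and 238, 140.5 and 229 CPM in the high group. S100a16 had 229, 246 and 369 CPM against 148, 67.4 and 165 CPM. Neither gene overlapped between the groups. The shares of all genes without overlap, or higher in each library, are not given for any of the groups compared. A lack of overlap or a shared direction is therefore a description of single genes. S100a6 had 1786, 1033 and 1647 CPM against 1097, 508 and 729 CPM, so the low group of 2-IC replicate 2 fell below the high group of 2-IC replicate 1. S100a10 had 266, 229.6 and 65.0 CPM against 135, 155 and 18.8 CPM and overlapped, with 3 and 5 UMIs in the 1-IC library.

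**Figure D1:**
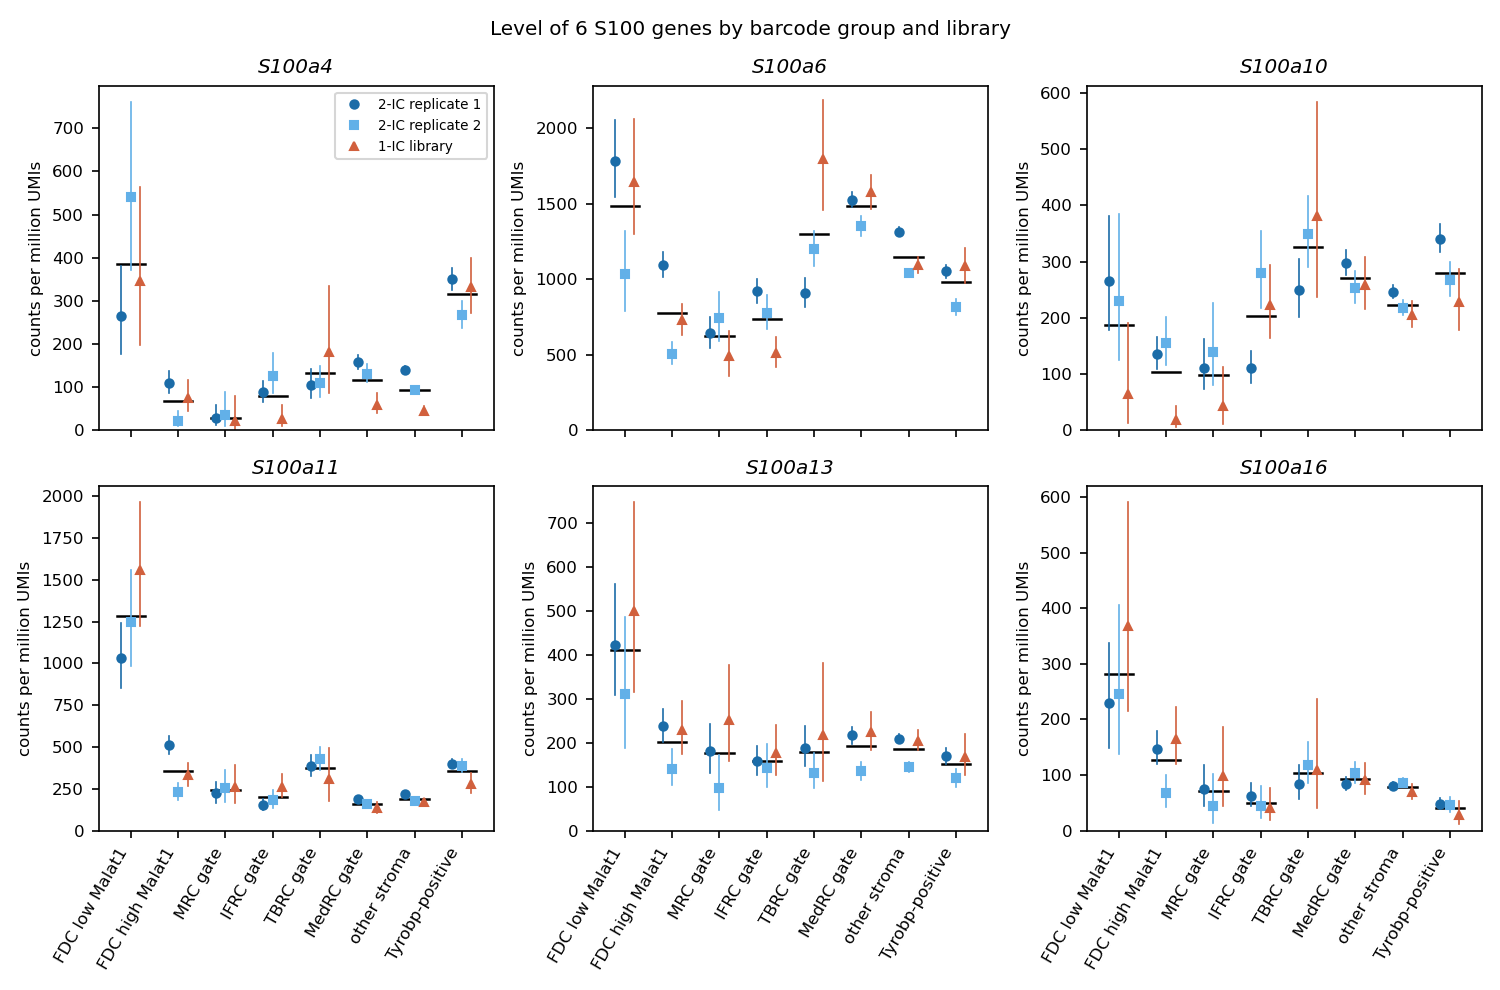
Level of the 6 detected members (vertical axes, CPM) in 8 barcode groups (horizontal axis), with 1 point per library, 95% Poisson intervals of the summed UMIs as bars and the mean of the 3 libraries as a black line. S100a11 in FDC barcodes with low Malat1 lies between 1035 and 1561 CPM, above every other group; other stroma includes the 4 gates.

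On the log2 scale the low over high ratio of S100a11 was 1.02, 2.44 and 2.24, and that of S100a4 was 1.27, 4.59 and 2.21. These 2 of 6 members were at least 2-fold higher in all 3 libraries, a state that 2.67% of the 2617 genes with at least 50 CPM in either group reached. No member was at least 2-fold lower, against 7.37% of the genes. The median over the 6 members that passed the level filter was 1.14, and over the 2617 genes it was 0.09, but over the 630 genes with at least 200 CPM, a limit added after the data were seen, it was 0.50, and over the 5 members among them 1.16. With that limit 6.19% of the genes and 2 of the 5 members were at least 2-fold higher in all libraries. S100a8 and S100a9 did not pass the filter, while S100a4 in 2-IC replicate 2 and S100a10 in the 1-IC library passed the 50 CPM limit through the low group alone. The 200 CPM limit was passed through the low group alone by S100a4 and S100a16 in each library and by S100a13 in 2-IC replicate 2. The counts and medians of members at these limits thus rest in part on the group where they are high. The mean ratio was 2.69 ± 1.71 (SD of log2, n = 3) for S100a4, 1.90 ± 0.77 for S100a11, 1.22 ± 0.62 for S100a16, 1.11 ± 0.62 for S100a10, 1.03 ± 0.18 for S100a13 and 0.97 ± 0.24 for S100a6. The S100a11 ratio of 2-IC replicate 1 sits at the 2-fold limit and fell to 0.92 with a Malat1 limit of 2%, which left S100a4 alone. Without 2-IC replicate 1, 5 of the 6 members were at least 2-fold higher.

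**Figure D2:**
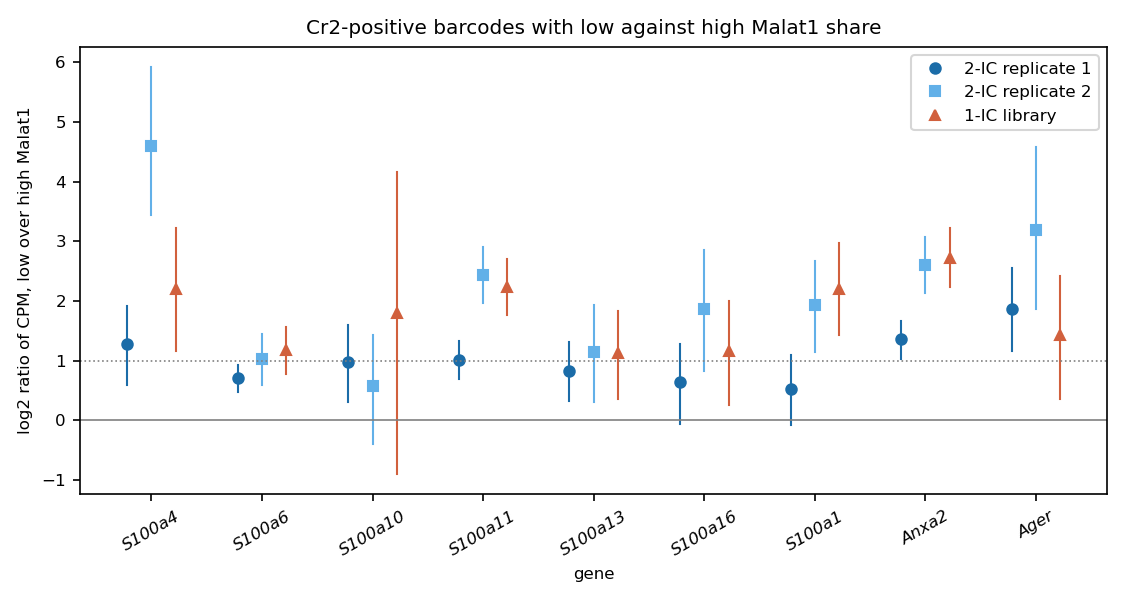
Log2 ratio of CPM in FDC barcodes with low over high Malat1 (vertical axis) for 6 members, S100a1, Anxa2 and Ager (horizontal axis), with 1 point per library, 95% intervals from the counts, and a dotted line at 2-fold. All points lie above 0, and S100a4, S100a11, Anxa2 and Ager lie above 2-fold in all 3 libraries.

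Several other properties moved with the Malat1 split. Low Malat1 barcodes had fewer UMIs (medians of 3260, 5774 and 3423 against 5792, 13706 and 8371), lower Neat1, another nuclear RNA (82.4, 0 and 0 CPM against 409, 1020 and 282 CPM), and more UMIs of nuclear-coded respiratory chain genes (3.08, 2.74 and 3.80% against 1.99, 1.03 and 2.09%). Cr2 itself was higher in the low group, as given above. Summed stromal markers ranged from 173 to 4570 CPM in the low and from 2329 to 9046 CPM in the high group. The part of these differences in the S100 values was not tested. With each barcode thinned to 2000 UMIs, which left out 7, 0 and 3 shallower barcodes of the low and 16, 1 and 4 of the high group, S100a11 was 1.45, 2.26 and 2.18 higher on the log2 scale, and with Malat1, mitochondrial and ribosomal protein genes removed from the totals it was 0.93, 2.34 and 2.08 higher. Without the contaminant filter the low group of 2-IC replicate 1 grew to 108 barcodes, and S100a11 was 0.08, 1.25 and 2.62 higher and S100a4 −0.40, 2.14 and 2.56, so that no member was 2-fold higher in all libraries. S100a10 was then lower with low Malat1 in each library, with log2 ratios of −0.21, −0.85 and −0.11. S100a6, S100a13 and S100a16 were lower in 2-IC replicate 1 alone (−0.31, −0.10 and −0.04).

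Along finer steps of the Malat1 share, S100a4 was highest in the lowest step in each library. Barcodes with under 0.1% Malat1 had 371, 541 and 347 CPM of S100a4, whereas the 9 barcodes of 2-IC replicate 1 between 0.1% and 1% had 76.5 CPM (95% Poisson interval 15.8 to 224). S100a11 was at 1214, 1247 and 1561 CPM under 0.1%, at 714 CPM between 0.1% and 1%, and at 337, 82.9 and 368 CPM at 10% and over. Between 1% and 5% it was at 537 and 440 CPM in the 2-IC libraries, and between 5% and 10% at 557, 313 and 285 CPM. Its level thus did not fall at every step in 2-IC replicate 1 and the 1-IC library. S100a6 in 2-IC replicate 1 was at 2172 CPM under 0.1%, 1097 CPM between 0.1% and 1%, 1343 CPM between 1% and 5%, 1055 CPM between 5% and 10%, and 468 CPM at 10% and over. S100a13 in the 1-IC library was at 218 CPM between 5% and 10% and at 238 CPM at 10% and over, so its level did not fall further there.

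**Figure D3:**
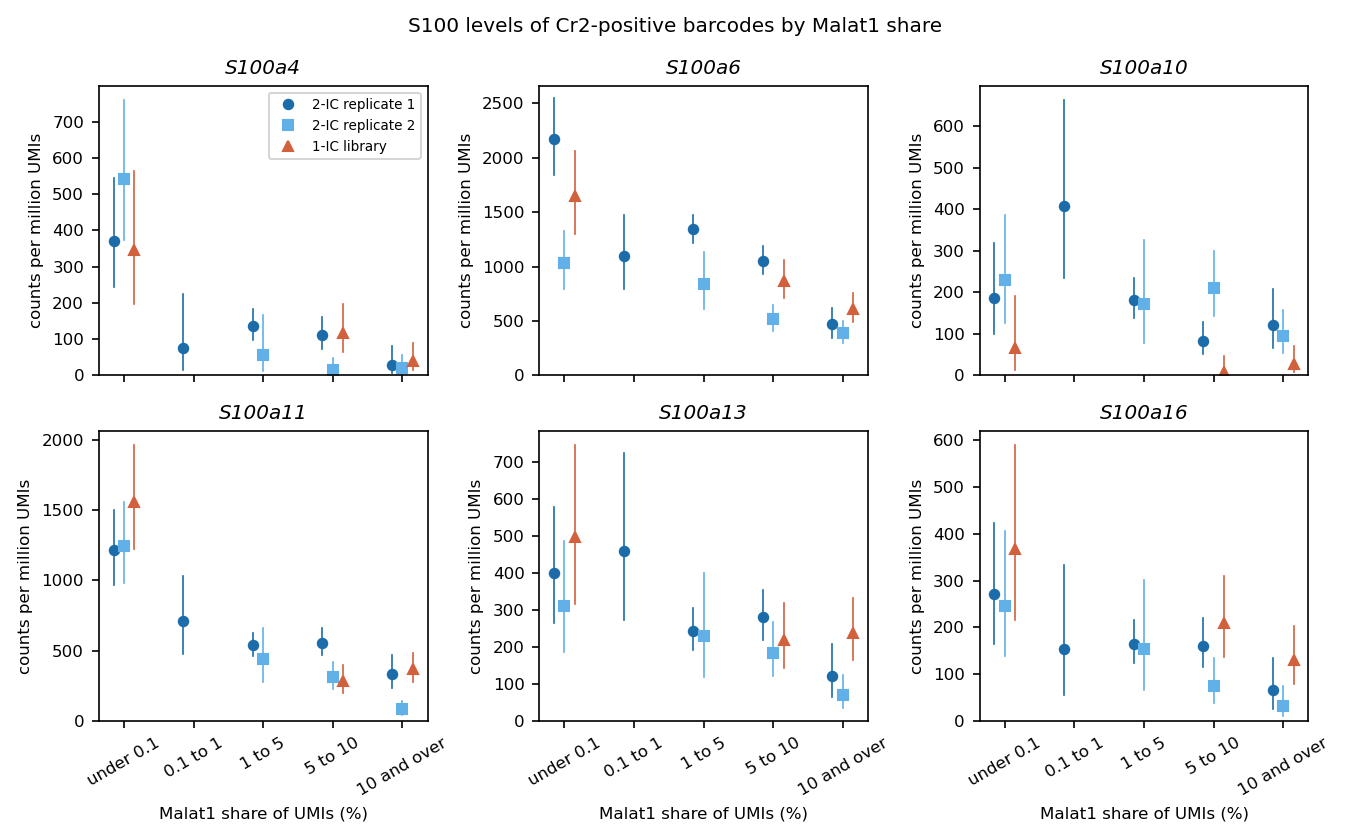
CPM (vertical axes) of 6 members in FDC barcodes grouped by the Malat1 share of their UMIs (horizontal axis, percent), with 1 point per library and 95% Poisson intervals; the step from 0.1 to 1 holds 9 barcodes of 2-IC replicate 1 only, and steps with under 3 barcodes are left out. S100a11 is at 1214 CPM or more in each library in the lowest step and at most 368 CPM in the highest.

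FDC barcodes with high Malat1 were then set against other stroma, and no member differed 2-fold in the same direction in all 3 libraries. Of the 2787 genes with at least 50 CPM, 6.1% were higher and 2.44% lower by this rule. S100a11 was closest on the high side, at 512, 230.4 and 331 CPM in FDCs against 222, 177 and 169.9 CPM in other stroma, a log2 ratio of 1.21, 0.38 and 0.96. S100a10 was closest on the low side, with 135, 155 and 18.8 CPM against 246, 218 and 206 CPM, a log2 ratio of −0.86, −0.49 and −3.45. S100a6 was lower in each library (log2 ratio −0.26, −1.04 and −0.59). S100a13 was within 0.19 of equality on the log2 scale in each library. S100a16 changed sign between libraries, with log2 ratios of 0.87, −0.35 and 1.26. S100a4 did so too, at −0.34, −2.06 and 0.73.

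The low S100a10 level of the 1-IC library was limited to some groups. In FDC barcodes of that library 3 UMIs were counted in the low and 5 in the high Malat1 group, giving 65.0 CPM (95% Poisson interval 13.4 to 190.0) and 18.8 CPM (6.10 to 43.8). The MRC gate described below had 43.7 CPM there against 111 and 139.8 CPM in the 2-IC libraries. In other stroma the 3 libraries were close, at 246, 218 and 206 CPM, and in Tyrobp-positive barcodes at 341, 268 and 228 CPM. With 1 library of the 1-IC condition there is no replicate check, so the difference between conditions was not tested.

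S100a4 was higher in Tyrobp-positive barcodes than in other stroma. It had 350.4, 268 and 331 CPM in these barcodes and 139.5, 93.8 and 45.2 CPM in other stroma, a log2 ratio of 1.33, 1.51 and 2.87, and the groups did not overlap. S100a4 was the 1 member of 6 at least 2-fold higher in all libraries, against 7.17% of the 2804 genes tested, and in the 1-IC library it passed the level filter through the Tyrobp-positive group alone, as S100a16 did through other stroma in each library. None was at least 2-fold lower, against 7.63% of the genes. One barcode gave 55 of the 106 S100a4 UMIs of the 1-IC library (51.9%). S100a11 was higher by 0.85, 1.13 and 0.73 on the log2 scale, with 399, 387 and 281 CPM in Tyrobp-positive barcodes. S100a16 was lower, with log2 ratios of −0.75, −0.92 and −1.30, at 48.0, 45.4 and 28.1 CPM against 80.7, 85.8 and 69.0 CPM. S100a6, S100a10 and S100a13 differed by less than 0.5 on the log2 scale in each library.

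These barcodes were a mixture. Of the 254, 59 and 59 barcodes, 199, 42 and 15 had at least 2 stromal genes, of which 130, 26 and 8 had 1 Tyrobp UMI. Among those with under 2 stromal genes, 40, 9 and 21 had 1 Tyrobp UMI. Summed B cell markers reached 1091 to 2224 CPM, summed myeloid markers 973 to 3348 CPM and NK cell markers 37.2 to 116 CPM. Macrophage markers reached 247 to 722 CPM and dendritic cell markers 247 to 372 CPM. Neutrophil markers, of which 3 to 5 of 9 were detected, reached 4.54 to 49.98 CPM, with Csf3r at 0.907 to 3.29 CPM. The part of each cell type in the S100 levels was not tested. In the 55, 17 and 44 barcodes with under 2 stromal genes, S100a4 was at 402, 331 and 494 CPM and S100a16 at 8.94, 6.75 and 5.61 CPM. In barcodes with at least 2 stromal genes S100a4 was at 344, 258 and 127 CPM and S100a16 at 52.6, 51.4 and 56.3 CPM. With at least 3 Tyrobp UMIs required, 61, 14 and 20 barcodes were left and S100a4, S100a11 and S100a16 each differed at least 2-fold in all libraries, S100a16 downwards. In barcodes with no UMI of Col1a1, Col1a2, Col3a1 or Dcn, which left 23, 8 and 38, S100a4 had log2 ratios of 0.34, 3.06 and 3.44 and no longer met the rule, while S100a16 was at least 2-fold lower in all libraries. The mean log2 ratio in these barcodes was −2.08 for S100a6 and −0.74 for S100a13. With the contaminant filter, which removes barcodes with Ptprc or Cd79a among others, moved from the stroma to the Tyrobp-positive barcodes (77, 17 and 21 left), the log2 ratio of S100a4 was 0.56, −1.83 and 1.47. That of S100a10 was −0.39, −1.33 and −3.43, and that of S100a11 was 0.80, −1.41 and 1.05.

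S100a8 and S100a9, the calprotectin genes, were nearly absent, and in 2-IC replicate 2 and the 1-IC library most of their UMIs lay in few barcodes. S100a8 had 10, 30 and 33 UMIs and S100a9 had 7, 45 and 37 UMIs over all barcodes of each library. No FDC barcode with low Malat1 had either, where 3 UMIs would have been 27.5, 49.2 and 65.0 CPM. FDC barcodes with high Malat1 had 0 S100a8 UMIs and 2 S100a9 UMIs, both in 2-IC replicate 1. None of the 254 and 59 Tyrobp-positive barcodes of the 2-IC libraries had a UMI of either gene, which allows a share of up to 1.18% and 5.08% of barcodes with a UMI.

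In the 1-IC library 1 barcode held 31 of the S100a8 and 36 of the S100a9 UMIs, 95.7% of the total for the pair. The same barcode had 10 UMIs of the neutrophil gene Retnlg and 3 of Tyrobp, but also 17 of Cr2, 89 of Cxcl13 and 60 of Clu, with 0 of Col1a1, Col1a2, Col3a1 and Dcn and 0.0381% Malat1. Because of its Tyrobp UMIs it was counted as Tyrobp-positive and not as an FDC. In 2-IC replicate 2 the 3 barcodes with the most UMIs had 12 and 15, 6 and 13, and 7 and 8 UMIs of S100a8 and S100a9. All 3 had no Tyrobp, Retnlg or Csf3r UMI and 31, 8 and 7 UMIs of the collagen gene Col1a2. Other myeloid or neutrophil markers were present in the second (1 UMI each of Lyz2 and Ngp) and the third (1 UMI each of Lyz2 and Fcer1g). The second barcode had 10.1% mitochondrial UMIs and was left out of all groups. In 2-IC replicate 1 the 13 barcodes with either gene had at most 1 UMI of S100a8 and 3 of S100a9. No doublet caller was run, and 2 cells in 1 droplet cannot be told apart here from 1 cell with both kinds of RNA.

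**Figure D4:**
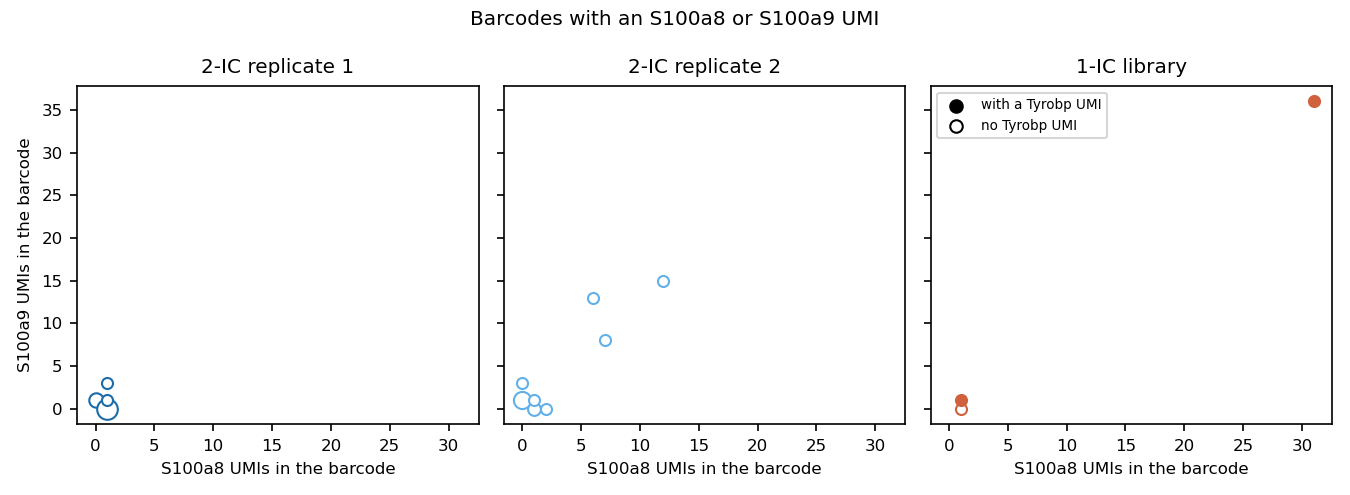
UMIs of S100a8 (horizontal axes) and S100a9 (vertical axis) in each barcode with at least 1 UMI of either gene, by library; filled points have a Tyrobp UMI, and larger points stand for several barcodes with the same values. One 1-IC barcode with 31 and 36 UMIs and 3 barcodes of 2-IC replicate 2 with 6 to 12 UMIs of S100a8 hold most of the counts.

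The tested comparison asked whether the members differ among reticular cells, the fibroblastic stroma of the LN. Within other stroma, 4 gates were set without any S100 gene. They stood for marginal reticular cells (MRC gate, Madcam1), interfollicular ones (IFRC gate, Tnfsf11 without Madcam1), those of the T-B border (TBRC gate, Fmod and Ccl21a) and medullary ones (MedRC gate, Inmt), and each gate rests on these genes alone. They held 63, 144, 82 and 644 barcodes over the 3 libraries, with 8 to 471 barcodes per gate and library. Each gate was compared with the mean of the other 3 by edgeR's quasi-likelihood test on summed UMIs with the library as a block, adjusted over 5936 genes by the Benjamini-Hochberg method. S100a8 and S100a9 were too low to be tested.

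S100a4, S100a6 and S100a10 were lower in the MRC gate and higher in the MedRC gate. S100a4 had 28.9, 34.9 and 21.8 CPM in the MRC gate (7, 4 and 2 UMIs) and 158, 131 and 59.6 CPM in the MedRC gate. All 3 MRC values lay below the 3 MedRC values, and the edgeR log2 fold change was −1.89 ± 0.41 (SE, adjusted p = 0.0050) for the MRC gate and 1.04 ± 0.22 (adjusted p = 0.0032) for the MedRC gate, each against the mean of the other 3. S100a6 had 643, 742 and 492 CPM in the MRC gate and 1527, 1354 and 1579 CPM in the MedRC gate. Its edgeR log2 fold change was −0.84 ± 0.20 (adjusted p = 0.0100) in the former and 0.92 ± 0.17 (adjusted p = 0.00069) in the latter. S100a10 had 111, 139.8 and 43.7 CPM against 298, 254 and 259 CPM, with an edgeR log2 fold change of −1.30 ± 0.29 (adjusted p = 0.0066) for the MRC gate and 0.66 ± 0.20 (adjusted p = 0.039) for the MedRC gate. In the TBRC gate S100a4, S100a6 and S100a10 had log2 fold changes of 0.72, 0.47 and 0.80 (edgeR adjusted p = 0.28, 0.27 and 0.075). The TBRC mean was above the MedRC mean for S100a4 (132 against 116 CPM) and S100a10 (327 against 270 CPM), and below it for S100a6 (1303 against 1487 CPM). These orders did not hold in each library. For S100a4 the TBRC gate had 105, 109.9 and 182 CPM, below the MedRC gate in both 2-IC libraries. In the 1-IC library 1 barcode gave 9 of its 10 UMIs there. S100a10 was lower in the TBRC gate in 2-IC replicate 1 (249 against 298 CPM). S100a6 was higher in the TBRC gate in the 1-IC library (1799 against 1579 CPM), where 1 barcode gave 73 of its 99 UMIs. In the MRC gate of 2-IC replicate 2, single barcodes gave 51 of the 85 S100a6 UMIs and 12 of the 16 S100a10 UMIs. All 4 S100a10 UMIs of the MRC gate in the 1-IC library lay in 1 barcode. Each gate is part of the mean behind the other contrasts, so the MRC and MedRC calls of a gene are not independent.

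S100a11 had another order. It was highest in the TBRC gate, with 387, 428 and 309 CPM, and its mean was lowest in the MedRC gate, with 187, 160.4 and 133 CPM, and the libraries of these gates did not overlap. In 2-IC replicate 1 the IFRC gate was lower still, at 154 CPM. The edgeR log2 fold change was 0.99 ± 0.18 (adjusted p = 0.0026) for the TBRC gate and −0.61 ± 0.17 (adjusted p = 0.028) for the MedRC gate. S100a13 and S100a16 passed the test in no gate (edgeR adjusted p from 0.16 to 0.96), with S100a16 at 40.8 to 62.6 CPM in the IFRC gate and 83.8 to 118 CPM in the TBRC gate. In the IFRC gate no member passed, S100a16 having the lowest adjusted p (0.24, log2 fold change −0.76 ± 0.23).

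**Figure D5:**
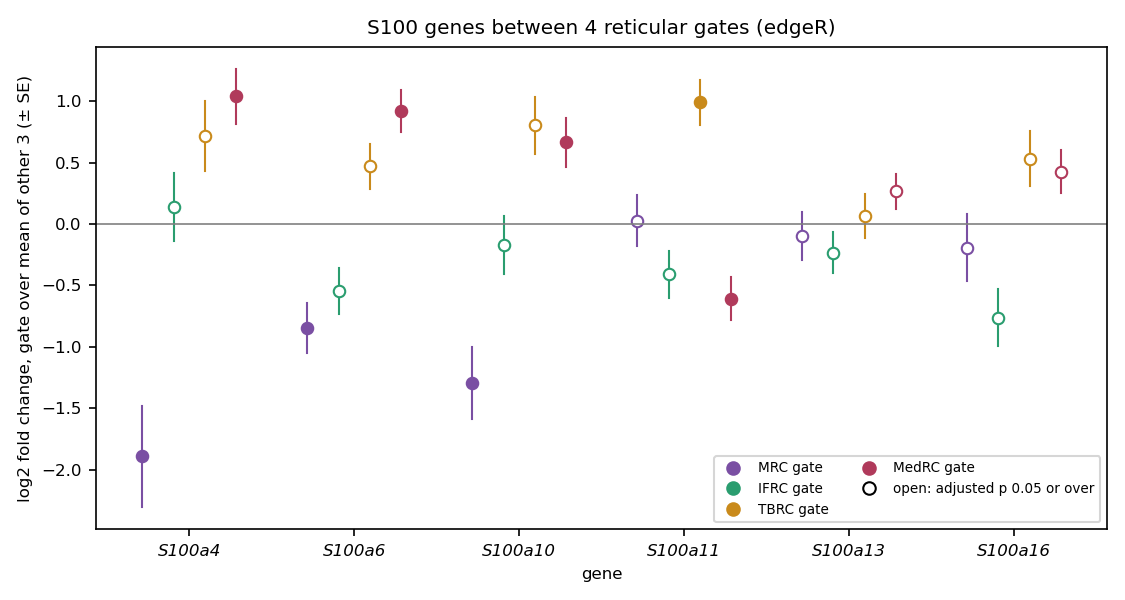
edgeR log2 fold change of each gate over the mean of the other 3 gates (vertical axis, bars are ± 1 SE) for 6 members (horizontal axis); filled points have an adjusted p under 0.05. S100a4, S100a6 and S100a10 are filled below 0 in the MRC gate and above 0 in the MedRC gate, and S100a11 above 0 in the TBRC gate and below 0 in the MedRC gate.

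Of the 6 members tested, 3 passed upwards and 1 downwards in the MedRC gate (5.95% and 3.2% of all genes), 0 upwards and 3 downwards in the MRC gate (3.52% and 3.79%), 1 upwards and 0 downwards in the TBRC gate (1.42% and 0.741%), and none in the IFRC gate (0.219% and 0.135%). The median log2 fold change over the 6 members was 0.62 in the TBRC, 0.54 in the MedRC, −0.32 in the IFRC and −0.52 in the MRC gate. Over all genes it was 0.00347, 0.0159, 0.0199 and −0.00204 in the same order. S100a6 in the MedRC gate kept its call with any library left out, but lost it without the contaminant filter (edgeR adjusted p = 0.11). Without 2-IC replicate 1, edgeR's adjusted p rose to 0.20 and 0.40 for S100a4 in the MRC and MedRC gates, 0.13 for S100a6 in the MRC gate, 0.57 for S100a10 in the MedRC gate and 0.17 for S100a11 in the TBRC gate. Without the 1-IC library it rose to 0.081 for S100a6 and 0.14 for S100a10 in the MRC gate, and to 0.15 for S100a10 and 0.17 for S100a11 in the MedRC gate, and without 2-IC replicate 2 to 0.13 for S100a11 in the MedRC gate. DESeq2's Wald test kept 6 of the 8, losing S100a4 and S100a10 in the MedRC gate (adjusted p = 0.12 and 0.22). Without the contaminant filter 5 of the 8 calls were lost, with S100a4 and S100a6 in the MRC gate at log2 fold changes of −0.52 and −0.25 (edgeR adjusted p = 0.45 and 0.75). Without the library block 3 calls were made.

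Ordered over the FDC groups, the gates and the Tyrobp-positive barcodes, S100a11, S100a13, S100a16, S100a4 and S100a6 were each highest in FDC barcodes with low Malat1. For S100a11, S100a13 and S100a16 the next group did not reach the lowest library of this one, whereas S100a4 overlapped with Tyrobp-positive barcodes (384.6 ± 142 against 316 ± 43.3 CPM, SD, n = 3) and S100a6 with the MedRC gate (1489 ± 401 against 1487 ± 118 CPM). S100a10 was highest in the TBRC gate (327 ± 69.3 CPM) and overlapped with Tyrobp-positive barcodes (279 ± 57.3 CPM) next to it. Below the top, neighbouring groups overlapped for each member, except between Tyrobp-positive barcodes and the TBRC gate for S100a4 and between Tyrobp-positive barcodes and the MRC gate for S100a11. The share of all genes highest in a given group, with or without overlap, is not given. The members were also chosen from these levels, so each order is a description of a single gene.

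Among the 8 other S100 genes followed, S100a1 was the one with a sizeable count. It had 293, 426 and 607 CPM in FDC barcodes with low Malat1 (32, 26 and 28 UMIs), 203, 112 and 131 CPM with high Malat1, and 101, 57.5 and 89.7 CPM in other stroma. It was thus higher in each step in every library, but less than 2-fold higher in 2-IC replicate 1 between low and high Malat1 (log2 ratio 0.53). S100a3 was rare, with 12, 8 and 3 UMIs in 9, 6 and 3 FDC barcodes with high Malat1 (18.1, 22.5 and 11.3 CPM) against 0.282, 4.01 and 0.627 CPM in other stroma. All 20 UMIs of other stroma in 2-IC replicate 2 lay in 1 barcode. The remaining 6 genes had at most 8 UMIs in any group and library. S100a1 passed the edgeR test in no gate.

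Of the 13 partners, targets and receptors listed, 2 were at least 2-fold higher with low than with high Malat1 in all 3 libraries, namely Anxa2 and Ager, and none was lower by this rule, where 2.67% of all genes at the 50 CPM limit and 6.19% at the 200 CPM limit were higher. By direction alone, 4 of the 13 were higher and 1, Ahnak, lower in each library, a share not given for all genes. Ahnak had log2 ratios of −0.76, −1.11 and −0.97, from 31, 25 and 9 UMIs with low Malat1 and 319, 316 and 102 with high Malat1. Anxa2, the partner of S100a10, had 1062, 1345 and 1691 CPM with low Malat1 and 415, 222 and 255 CPM with high Malat1, and 142 to 210.2 CPM in other stroma. Ager, which encodes RAGE, had 275, 229.6 and 282 CPM with low Malat1 (30, 14 and 13 UMIs), 75.3, 25.3 and 105 CPM with high Malat1 and 16.2 to 27.6 CPM in other stroma. S100a10 itself overlapped between the FDC groups while Anxa2 did not. The median log2 ratio over the 13 genes was 0.38, against 0.09 and 0.50 over all genes at these limits. The 13 genes were held to no level limit, so these shares and medians come from an unlike set. Tlr4, for example, was at most 11.2 CPM in the FDC groups. Ager would pass 50 CPM in 2-IC replicate 2, and 200 CPM in each library, through the low group alone. Myh9, the partner of S100a4, had 284, 262 and 86.7 CPM with low Malat1 and 262, 253 and 203 CPM with high Malat1. Cacybp, the partner of S100a6, had 119, 65.6 and 86.7 CPM against 90.3, 70.2 and 63.9 CPM, and Tlr4 had 0 UMIs with low Malat1 in each library. Anxa1, the partner of S100a11, had log2 ratios of low over high Malat1 of 0.36, 0.55 and −0.86. These rest on 19, 5 and 2 UMIs in the low group. With high Malat1 against other stroma its log2 ratios were −0.38, −1.23 and −1.29. Fgf1, which S100a13 helps to release, had 4, 7 and 0 UMIs with low and 14, 14 and 11 with high Malat1.

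Of the 11 partners with enough UMIs for the test between gates, Ager was higher (edgeR log2 fold change 1.44 ± 0.40, adjusted p = 0.029) and Anxa1 lower (−0.81 ± 0.24, adjusted p = 0.039) in the MRC gate. Of all genes, 3.52% passed upwards and 3.79% downwards in this gate. Ager was low there, at 34.9 to 74.2 CPM, and neither call is given under the alternatives. None of the 11 passed in the other gates. Anxa2 did not follow S100a10 there, with log2 fold changes of 0.17 ± 0.27 in the MRC gate and 0.03 ± 0.21 in the MedRC gate (edgeR adjusted p = 0.81 and 0.98).

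The genes whose pattern was most like that of each member were sought over 21 sums (7 groups in 3 libraries), as Pearson's r of log2(CPM + 10) centred within each library, among 6395 genes. These sums share libraries and depth, so r is a description. S100a11 was most like Crip1 (r = 0.92) and Dbi (r = 0.92), S100a13 like Gnb1 and A930003A15Rik (r = 0.93 for both), S100a16 like Cd81 (r = 0.93) and Cetn3 (r = 0.91), and S100a4 like the ribosomal protein genes Rpl38 (r = 0.91) and Rpl31 (r = 0.88). S100a6 was most like Eef1d (r = 0.81) and Pfdn5 (r = 0.80), and S100a10 like Rps4x (r = 0.83) and Gbp2 (r = 0.81). S100a8 and S100a9 were most like each other (r = 0.99) and next Prf1 (r = 0.86 and 0.84), and these values rest on the few barcodes described above. Among the members, S100a13 and S100a16 had r = 0.88 and S100a11 and S100a13 had r = 0.79, whereas S100a10 had r = −0.08 with S100a11 and −0.29 with S100a16.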

How the data were processed

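The authors deposited raw UMI counts per gene and barcode from Cell Ranger, with cell calling done upstream; the study names version 3 with Ensembl GRCm38 release 89, while the matrix headers name version 5.0.0. Barcodes needed at least 200 genes and at most 10% mitochondrial UMIs, and, except for Tyrobp-positive ones, no UMI of 13 contaminant genes, after the study's methods. Groups were set by Cr2, Tyrobp, Malat1 and gate genes, and barcodes in 2 gates were left out. UMIs were summed per group and library and given as CPM of all UMIs. Intervals and floors (3 counts) cover counting error only.

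Sums of at least 5 barcodes per gate and library were tested by the quasi-likelihood method of edgeR 4.0.16 with the library as a block, after its default expression filter and TMM scaling, checked on simulated data, with DESeq2 1.42.0 as an alternative. SEs were derived from the F statistic. Both 2-IC libraries are taken as replicates on their titles. The p-values measure only how differences between gates vary across the libraries after the block, a spread that may be technical. The members and gene lists were chosen with earlier results of these data known. Genes named are the 8 members, the listed S100 genes and partners, and the 2 genes most like each member. Sequences are from RefSeq (GRCm38.p6), with a promoter for 7 of 8 members, and positions from GENCODE vM21. Alternatives covered the Malat1, Cr2, Tyrobp and mitochondrial limits, weighting, thinning to 2000 UMIs, totals, filters, normalization and each library left out.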

Additional observations from a re-analysis of the deposited data

Results flagged for a closer look

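S100a4 in FDC barcodes with high Malat1 against other stroma went in opposite directions in the conditions: the log2 ratio was 0.73 in the 1-IC library and −0.34 and −2.06 in the 2-IC libraries. The difference between conditions was not tested, as the 1-IC condition has 1 library. The 1-IC value rests on 20 UMIs, of which 1 barcode holds 8, and its 95% interval from the counts runs from −0.06 to 1.47.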

How the results depend on the processing

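No member met the 2-fold rule between FDCs with high Malat1 and other stroma under any alternative. Between low and high Malat1, 2 members met it, 1 with a Malat1 limit of 2%, at least 2 Cr2 UMIs, a mitochondrial limit of 5%, or totals without Malat1, mitochondrial and ribosomal genes, 0 without the contaminant filter, 3 with barcodes weighted equally, and 2 to 5 with 1 library left out. For Tyrobp-positive barcodes 1 member met it, 3 with at least 3 Tyrobp UMIs, 0 with the filter moved to these barcodes, and 1 with any library left out. The cause was not tested.

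Between gates, 8 member calls became 3 with no replicate block, 4 after thinning, 4 without the contaminant filter, and 3 to 7 with 1 library left out. Each library gives 1 sum per gate and serves as the block. Genes called numbered 543 in the MedRC, 434 in the MRC, 128 in the TBRC and 21 in the IFRC gate. With no replicate block they were 153, 135, 41 and 1, after thinning 233, 151, 43 and 10, without the contaminant filter 834, 801, 210 and 86, and with 1 library left out 215 to 455, 140 to 426, 41 to 110 and 2 to 29. With at least 2 UMIs of the gate gene, where the MRC gate of 2-IC replicate 2 fell under 5 barcodes, the TBRC gate gave 292 and the IFRC gate 57, and with genes of at least 1 count the IFRC gate gave 70.

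Signs turned for no member that had passed the test. For the others, log2 fold changes with 1 library left out ran from −0.11 to 0.32 (S100a4, IFRC gate), −0.40 to 0.24 (S100a10, IFRC gate), −0.081 to 0.18 (S100a11, MRC gate) and −0.014 to 0.0997 (S100a13, TBRC gate). Without the contaminant filter S100a4 was at −0.00409 in the IFRC and −0.078 in the TBRC gate, and S100a13 at 0.15 in the MRC and −0.20 in the TBRC gate. With 2 gate UMIs S100a11 was at −0.023 and S100a13 at 0.048 in the MRC gate, and S100a13 at −0.11 in the TBRC gate. S100a11 was at −0.10 in the MRC gate with genes of at least 1 count, S100a13 at −0.00217 in the TBRC gate with no replicate block, and S100a4 at −0.22 in the IFRC gate without shared barcodes, an alternative added after the data were seen. Small sums, such as 2 S100a4 UMIs in the MRC gate of the 1-IC library, limit these values.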
